A study of Mus musculus with 14 samples.

Results

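Lrat, Reln, Des, Cygb, Pdgfra, Pdgfrb, Lum, Dcn and Thy1, 9 genes that mark hepatic stellate cells and fibroblasts, were followed through every library of a mouse hepatocyte culture study. They were taken by symbol from the gene tables, 9 of 21878 genes, and all 9 passed the filter on low counts that left 14100 genes for testing. Hepatic stellate cells lie between hepatocytes and the sinusoidal endothelium and store vitamin A as retinyl esters. When the liver is injured, or when the cells are plated on stiff plastic, they are known to lose this store and to turn into myofibroblasts that contract and deposit collagen. Lrat, which encodes the enzyme that esterifies retinol, and Reln, which encodes the secreted glycoprotein reelin, are markers of the quiescent cell. The other 7 genes cover an intermediate filament protein, a globin, both receptors for platelet-derived growth factor (PDGF), a pair of matrix proteoglycans and a surface glycoprotein of fibroblasts.

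RNA was sequenced from liver cells of C57BL/6 mice that the labels call hepatocytes, in 14 libraries forming 7 groups of 2. FH stands for freshly isolated hepatocytes, FH Yap-/- for fresh hepatocytes labelled as lacking Yap, BM 1D, BM 3D and BM 3W for BM hepatocytes at 1 day, 3 days and 3 weeks, BM 3W Yap-/- for BM hepatocytes labelled as lacking Yap at 3 weeks, and LBDXL 3W for LBDXL hepatocytes at 3 weeks. The labels do not spell out BM or LBDXL, and they give neither the ages of the mice nor how Yap was deleted and in which cells. They do not tell whether replicate libraries represent different mice or dishes, and the p-values accordingly cover only variation between libraries, which may be technical. The series title concerns keeping hepatocyte functions in culture by limiting YAP activation through mechanical tension, YAP being a transcriptional co-activator of the Hippo pathway.

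Depth ran from 15501005 to 21220365 counts per library. Levels are CPM, counts relative to the library total scaled by TMM factors, which ran from 0.65 in FH to 1.69 in the second BM 3W library. The 10 hepatocyte markers of a fixed list (Alb, Apoa1, Cps1 and others) summed to 216947 to 219881 CPM in FH, 246521 to 256852 in FH Yap-/-, 166142 to 211091 in LBDXL 3W, 99363 to 115191 in BM 3W Yap-/-, 58465 to 66629 in BM 1D, 35424 to 82178 in BM 3D and 3502 to 32768 in BM 3W. None of the 10 was at 0 counts in any group, and their sum was below FH in every BM group, lowest in BM 3W. Yap1 read 87.6 and 97.6 CPM in FH, 80.2 and 95.5 CPM in BM 3W, 23.1 and 26.5 CPM in FH Yap-/- and 6.66 and 7.74 CPM in BM 3W Yap-/-, lower in each group labelled Yap-/- than in its control. In these bulk libraries fewer cells of a type and less RNA per cell cannot be told apart.

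RefSeq promoter sequences (250 bases before to 50 after the start site) were at hand for Lrat, Reln, Des and Pdgfra. Those of Lrat and Des are shown because these genes are the ends of the range described here, a quiescence marker and the gene that differed most between BM 3W and FH. The Lrat promoter is chr3:82903925-82904224 (minus strand), the Des promoter chr1:75360042-75360341 (plus strand). Capitals mark the TEAD motif GGAATG, here read as CATTCC from base -208 of Lrat, and the E-box CAGCTG from base -36 of Des, counted from the start site.
Lrat: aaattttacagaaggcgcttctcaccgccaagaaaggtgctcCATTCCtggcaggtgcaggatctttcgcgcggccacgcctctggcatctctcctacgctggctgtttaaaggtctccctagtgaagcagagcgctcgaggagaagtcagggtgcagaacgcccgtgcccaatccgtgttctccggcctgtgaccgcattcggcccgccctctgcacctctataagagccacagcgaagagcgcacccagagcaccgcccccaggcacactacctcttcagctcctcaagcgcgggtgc
Des: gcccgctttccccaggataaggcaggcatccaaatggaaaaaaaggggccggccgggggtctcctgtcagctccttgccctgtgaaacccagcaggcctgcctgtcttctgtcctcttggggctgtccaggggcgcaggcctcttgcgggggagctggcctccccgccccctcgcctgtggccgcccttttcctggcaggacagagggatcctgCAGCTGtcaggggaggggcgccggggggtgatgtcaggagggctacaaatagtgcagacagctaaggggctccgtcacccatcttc
TEAD proteins are the DNA-binding partners of YAP, and CAGCTG is an E-box bound by basic helix-loop-helix factors. On either strand GGAATG was found in 1 of the 4 promoters and in 14.7% of 32851 RefSeq promoters of the same length, and CAGCTG in 1 of the 4 and in 16.3%. The AP-1 motif TGANTCA was in 0 of the 4 and in 7.81% of all. No marked motif overlaps another. These matches describe letters in a window and say nothing of binding.

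The genes are spread over the genome (coordinates on GRCm38.p6 from NCBI RefSeq, whole gene spans with exons and introns). Lrat (NCBI gene 79235) lies at chr3:82892582-82903974 on the minus strand and overlaps Rbm46os on the other strand, and Reln (19699) at chr5:21884454-22344705 on the minus strand, where several predicted genes and pseudogenes overlap it. Des (13346) lies at chr1:75360292-75368579 and overlaps Gm15179 on the other strand, and Cygb (114886) at chr11:116645595-116654504 on the minus strand, overlapped by Prcd. Pdgfra (18595) lies at chr5:75151322-75198206, overlapped by Gm42802, Gm42803 and Mir7025, and Pdgfrb (18596) at chr18:61045127-61085067. Lum (17022) at chr10:97565501-97572703 and Dcn (13179) at chr10:97479500-97518163 are neighbours on the plus strand, 47338 bases apart, and Thy1 (21838) lies at chr9:44043384-44048579. The library kit kept strand, but the sources used here do not state whether counting used it, so the counts of Lrat, Reln, Des, Cygb and Pdgfra may include reads of the overlapping genes.

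Lrat was low in fresh cells and lower still in BM 1D and BM 3W Yap-/-. It read 6.60 and 6.01 CPM in FH, 10.6 and 10.3 in FH Yap-/-, 40.6 and 21.2 in BM 3W, 24.5 and 8.64 in LBDXL 3W and 3.50 and 2.41 in BM 3W Yap-/-. In BM 1D the 2 libraries read 0.0902 and 1.82 CPM (2 and 35 counts), and in BM 3D 3.08 and 15.5 CPM. BM 3W held the highest mean (30.9 ± 13.7 CPM, SD, n = 2), but its libraries overlapped those of LBDXL 3W, the next group, and neighbouring groups overlapped down to FH. Only BM 3W Yap-/- (2.96 ± 0.767 CPM, SD, n = 2) and BM 1D (0.956 ± 1.22 CPM, SD, n = 2) stood below FH with no overlap.

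Reln, whose protein is a large extracellular matrix glycoprotein, kept group means between 30.9 and 69.0 CPM outside BM 3W. It read 37.8 and 30.4 CPM in FH, 26.8 and 35.0 in FH Yap-/-, 77.5 and 60.5 in LBDXL 3W, and 44.6 and 27.0 in BM 3W Yap-/-. In BM 3W it read 504 and 166 CPM, above all 12 other libraries. In BM 1D (19.0 and 70.3 CPM) and BM 3D (12.7 and 68.4 CPM) the second library was the higher, as for Lrat.

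Des encodes desmin, the muscle-type intermediate filament protein of stellate cells and myofibroblasts. FH held 7 and 0 counts (0.557 and 0 CPM), FH Yap-/- read 0.621 and 0.96 CPM, BM 1D 0.361 and 0.156, and BM 3D 1.05 and 2.41. It then read 99.5 and 207 CPM in BM 3W, 3.38 and 5.32 in LBDXL 3W and 15.1 and 18.8 in BM 3W Yap-/-. The top 5 groups in this order (BM 3W, BM 3W Yap-/-, LBDXL 3W, BM 3D, FH Yap-/-) did not overlap with their neighbours, whereas FH and BM 1D did. In BM 3W Des was higher in the second library, and the other 8 genes were higher in the first. Cygb, which encodes cytoglobin, an oxygen-binding globin of stellate cells, read 1.67 and 1.35 CPM in FH, 1.79 and 1.12 in FH Yap-/-, 0.361 and 0.781 in BM 1D and 0.648 and 2.66 in BM 3D. It reached 79.3 and 50.4 CPM in BM 3W, against 3.43 and 1.81 in LBDXL 3W and 3.06 and 3.47 in BM 3W Yap-/-. From BM 3W Yap-/- down to FH Yap-/- each group's libraries overlapped those of the next.

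The PDGF receptors transmit the main mitogenic signal for stellate cells and fibroblasts. Pdgfra read 1.75 and 2.93 CPM in FH, 1.24 and 2.08 in FH Yap-/-, 1.76 and 2.97 in BM 1D and 3.08 and 6.21 in BM 3D. It read 78.9 and 21.8 CPM in BM 3W, 16.7 and 8.28 in LBDXL 3W and 10.2 and 6.64 in BM 3W Yap-/-, the last pair of groups overlapping. Pdgfrb read 2.39 and 1.42 CPM in FH, 1.31 and 0.96 in FH Yap-/-, 2.26 and 1.93 in BM 1D and 6.93 and 7.09 in BM 3D, so it had left the fresh level by 3 days. It stood at 188 and 100.2 CPM in BM 3W, 13.1 in each BM 3W Yap-/- library, and 13.8 and 5.92 in LBDXL 3W.

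Lum and Dcn encode lumican and decorin, small leucine-rich proteoglycans that bind collagen fibrils. Lum read 3.58 and 2.22 CPM in FH, 1.38 and 2.24 in FH Yap-/-, 0.451 and 0.26 in BM 1D and 2.63 and 3.64 in BM 3D. It read 608 and 269 CPM in BM 3W, 20.6 and 9.48 in LBDXL 3W and 23.5 and 18.8 in BM 3W Yap-/-. BM 1D lay below every other group and BM 3W above. Dcn was the most abundant member per unit length in every library, 42.1 to 82.5% of the summed FPKM (fragments relative to transcript length and library size) of the 9. It read 50.6 and 43.1 CPM in FH, 39.3 and 46.9 in FH Yap-/-, 16.9 and 29.0 in BM 1D and 39.0 and 52.4 in BM 3D. At 3 weeks it read 1128 and 476 CPM in BM 3W, 323 and 160.2 in LBDXL 3W and 210.0 and 163 in BM 3W Yap-/-.

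Thy1 encodes the surface glycoprotein Thy-1 (CD90) of fibroblasts, T cells and neurons, and was essentially a feature of the BM 3W libraries, with 859 and 396 counts (29.5 and 11.9 CPM). The other 12 libraries held 0 to 9 counts, with 0 in both BM 1D libraries and the highest in the second BM 3D library. Thy1 passed the filter on low counts only through BM 3W, so its direction in comparisons with BM 3W is no support. A count of 0 allows up to 3 counts, 0.0898 to 0.24 CPM depending on the library, for counting error alone. Of 5 T cell markers, Cd3e, Cd3d and Cd3g were at 0 counts in BM 3W and the 5 summed to 0.514 to 0.599 CPM there. Lck held 12 and 20 counts in BM 3W and 0 in each FH library. The part of T cells in the Thy1 level was not tested.

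**Figure D1:**
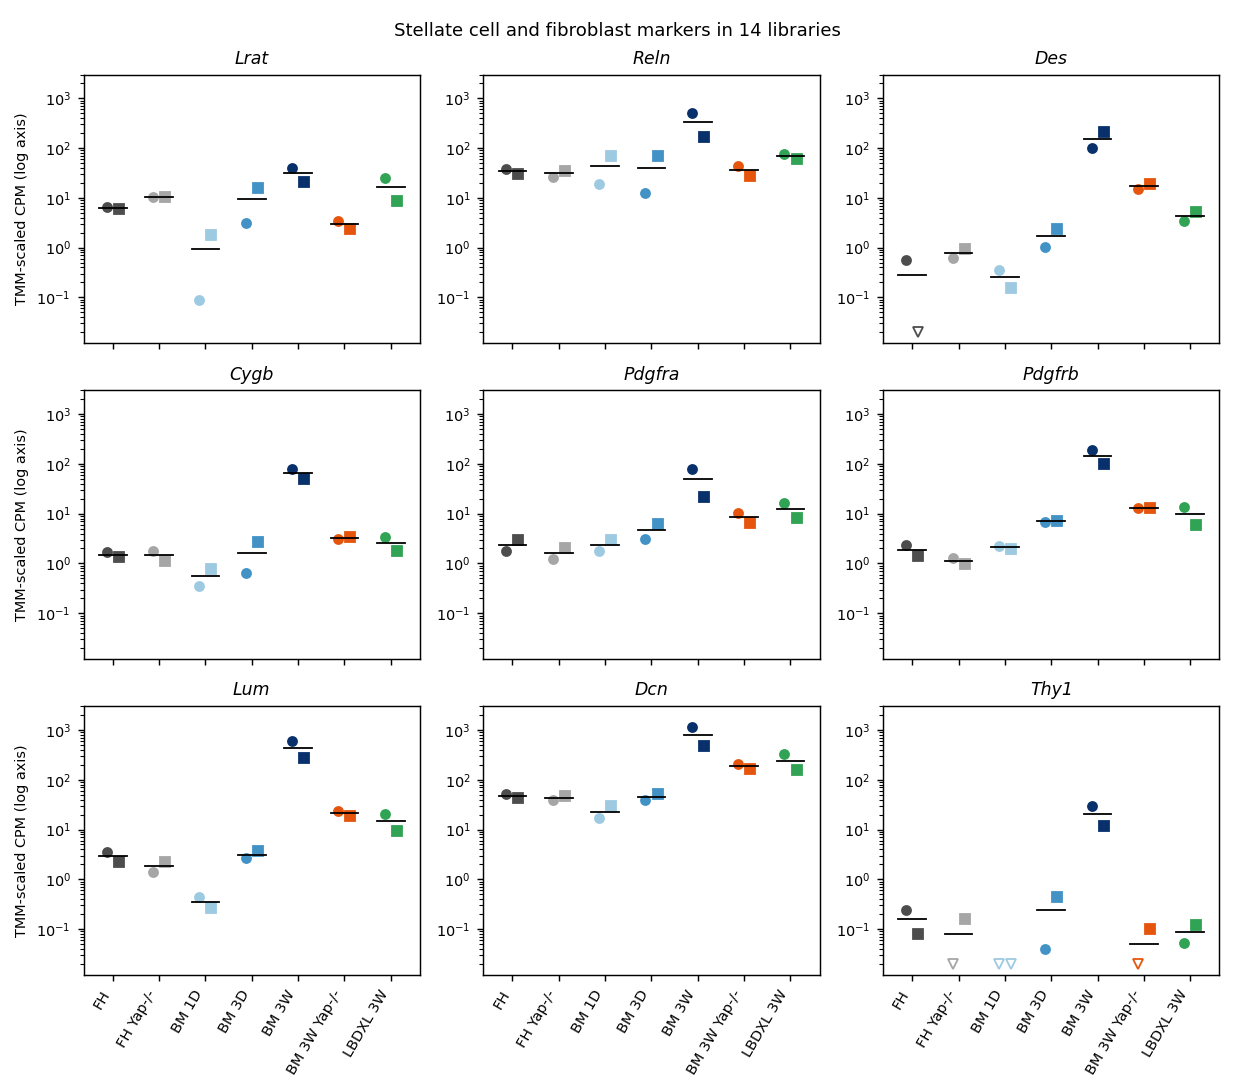
TMM-scaled CPM (log axis) of the 9 genes in 7 groups; circles are library 1, squares library 2, black lines the mean of 2 libraries, and open triangles at the foot mark 0 counts. BM 3W holds the highest mean of every gene, and for Lrat alone the BM 3W libraries overlap those of the next group.

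BM 3W was compared with FH to see how far the markers departed from the isolate. All 9 rose, with a median log2 fold change of 5.42 against 0.17 over all tested genes, and no library of one group overlapped the other. The median was 4.92 without Thy1, which passed the low-count filter only through BM 3W. Among all tested genes 33.0% rose, 26.1% fell and 87.0% had groups that did not overlap, so calls were common in this comparison and separation of the libraries was the rule. The quiescence genes rose by the least, Lrat by 2.29 ± 0.91 (log2 ± SE, adjusted p = 0.0484) and Reln by 3.30 ± 0.82 (adjusted p = 0.00558). Differences between genes were not tested, so the order of Reln and Dcn is not settled. Dcn rose by 4.10 ± 0.50, Pdgfra by 4.42 ± 0.70, Cygb by 5.42 ± 0.65, Pdgfrb by 6.24 ± 0.50, Thy1 by 6.97 ± 1.15 and Lum by 7.24 ± 0.58, with adjusted p between 7.68e-06 and 0.000599. Des rose most, by 9.08 ± 0.83 (adjusted p = 1.28e-05), from 7 counts over both FH libraries.

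The Lrat call lay near the threshold (adjusted p = 0.0484) and was lost without any 1 BM 3W, FH or Yap-/- library. Its log2 change was 1.74 and 2.69 without the first and second BM 3W library. Without the first and second FH library it was 2.36 and 2.27. Without any 1 of the 4 Yap-/- libraries, which are not in this comparison, it was 2.23 to 2.29. With a replicate block and all libraries kept, adjusted p was 0.0517. The other 8 calls held without any 1 library, though the log2 change of Des was 14.6 and 8.15 without the first and second FH library and 8.45 without the second BM 3W library, and that of Thy1 was 7.92 without the first FH library. Without the first FH library Des is set against 0 counts, here and below, so such values are no measured fold. Without the first BM 3W library Reln was at 2.28, Pdgfra 3.21, Dcn 3.34, Thy1 6.16 and Lum 6.53, and without the second Reln was at 3.89 and Pdgfra at 5.07.

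The early cultures showed little of this. In BM 1D against FH 0 of the 9 rose and 2 fell (of all tested genes 23.6% rose and 20.2% fell), and 5 of 9 did not overlap, against 75.1% of all tested genes. Lum fell, with a log2 change of -2.98 ± 0.63 (adjusted p = 0.00312), and so did Lrat, at -2.75 ± 1.00 (adjusted p = 0.0452). Without the first BM 1D library Lrat stood at -1.79 (adjusted p = 0.176) and without the second at -6.03 (adjusted p = 0.00857), and leaving out any 1 FH, Yap-/- or BM 3W library also took its adjusted p past the threshold (0.053 to 0.119). The remaining tests gave adjusted p between 0.0845 (Dcn, log2 change -1.03 ± 0.45) and 1, and the median of the 8 genes without Thy1, which had 4 counts in FH and 0 in BM 1D, was -0.55 against 0.17 over all tested genes.

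In BM 3D against FH 2 of 9 rose and 0 fell (22.5% and 17.9% of all tested genes), with a median of 0.53 against 0.17, and 3 of 9 did not overlap, against 75.0% of all tested genes. Pdgfrb rose by 1.88 ± 0.44 on the log2 scale (adjusted p = 0.00658) and Des by 2.60 ± 0.85 (adjusted p = 0.0317). Without the second FH library adjusted p was 0.069 for Pdgfrb and 0.175 for Des (log2 change 1.61), and it was 0.152 for Des without the second BM 3D library (log2 change 1.90). Without the first FH library Des, then set against 0 counts, was called at 0.0121. Lrat (0.55 ± 0.88), Reln (0.25 ± 0.76), Lum (0.11 ± 0.50) and Dcn (-0.04 ± 0.44) did not pass.

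Between 1 and 3 days, 2 of 9 rose and 0 fell (3.67% and 1.60% of all tested genes), with a median of 1.63 without Thy1 against 0.02. Lum rose by 3.10 ± 0.61 on the log2 scale (adjusted p = 0.018) and Pdgfrb by 1.74 ± 0.42 (adjusted p = 0.0408). Of the 9, 7 did not overlap, against 45.0% of all tested genes. Both calls were lost without either BM 1D library or without the second BM 3D library (adjusted p 0.0534 to 0.148), and that of Pdgfrb also without the first BM 3D library (0.0972) or any 1 FH or Yap-/- library (0.058 to 0.0676). Lrat (3.30 ± 1.00, adjusted p = 0.0837) and Des (2.67 ± 0.78, adjusted p = 0.0732) had changes of like size that did not pass. Over the 24 alternative settings Lrat ran from 1.07 to 6.58 and was called in 3. Des ran from 0.51 to 3.41 and was called in 2. Thy1 went from 0 to 10 counts.

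Most of the difference arose between 3 days and 3 weeks, where 8 of 9 rose and 0 fell (13.5% and 10.9% of all tested genes). Among the 8 is Thy1, which passed the low-count filter only through BM 3W, so its rise is no support. The median was 4.36 (4.25 without Thy1) against -0.10, and none of the 9 overlapped, as for 63.0% of all tested genes. Lum rose by 7.13 ± 0.57, Des by 6.48 ± 0.67, Thy1 by 6.44 ± 1.06, Cygb by 5.31 ± 0.64, Pdgfrb by 4.36 ± 0.44, Dcn by 4.13 ± 0.50 and Pdgfra by 3.44 ± 0.65 on the log2 scale, with adjusted p between 4.05e-05 and 0.00393. Reln rose by 3.05 ± 0.81 (adjusted p = 0.0206), a call lost without the first BM 3D library (0.0882) or the first BM 3W library (0.127), while without the second of each its log2 change was 4.72 and 3.64. Lrat differed by 1.74 ± 0.88 (adjusted p = 0.173). Of the calls that held without any 1 library, values moved to 2.23 for Pdgfra, 3.37 for Dcn, 5.62 for Thy1 and 6.42 for Lum without the first BM 3W library, to 5.85 for Des and 4.09 for Pdgfra without the second, to 4.60 for Cygb and 5.52 for Thy1 without the first BM 3D library, and to 6.63 for Cygb, 7.17 for Des and 8.78 for Thy1 without the second.

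The genes that neighbour these markers in function were described by lists whose members were taken from textbook knowledge. These lists were chosen with earlier results of these data known. Of 17 tested genes of quiescent stellate cells other than Lrat and Reln, 11 rose and 1 fell in BM 3W against FH (median 2.67). Of 18 genes of activated stellate cells and myofibroblasts 18 rose (median 9.20). The all-gene median was 0.17, and 33.0% of all tested genes rose and 26.1% fell. Ecm1, an extracellular matrix protein, rose by 1.67 ± 0.38 on the log2 scale (adjusted p = 0.00312). The collagen genes Col1a2 and Col3a1 rose by 9.87 ± 0.81 and 9.32 ± 0.91 on the log2 scale, Col3a1 from 7.63 and 5.46 CPM to 3580.2 and 4814 CPM.

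In BM 3D against FH 14 of 18 activated genes rose and 0 fell (median 3.37), among them Sparc, a collagen-binding matrix protein, by 2.61 ± 0.54 on the log2 scale (adjusted p = 0.00334), and of 17 quiescent genes 0 rose and 1 fell (median -0.20). In BM 1D against FH the activated list had 5 rises and 1 fall (median 0.76) and the quiescent list 0 rises and 5 falls (median -1.08). Lists of other cell types had calls in these comparisons too. Of all tested genes 23.6% rose and 20.2% fell in BM 1D against FH, and 22.5% and 17.9% in BM 3D against FH. From 3 days to 3 weeks 13.5% of all tested genes rose and 10.9% fell. In BM 1D against FH 8 of 10 hepatocyte genes fell, 5 of 7 tested cholangiocyte genes rose, 5 of 10 Kupffer cell and macrophage genes fell and 1 rose, and 3 of 10 endothelial genes fell. In BM 3D against FH the hepatocyte list had 8 falls, the cholangiocyte list 6 rises, the macrophage list 6 falls and 1 rise, and the endothelial list 1 of each. From 3 days to 3 weeks 8 macrophage genes rose and 1 fell, 3 cholangiocyte genes rose, and 5 hepatocyte and 5 endothelial genes fell. The part of these cell types in the values of the 9 markers was not tested.

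Of 8 further small leucine-rich proteoglycans tested beside Lum and Dcn, in BM 3W against FH 5 rose and 1 fell (median 3.96). Of all tested genes 33.0% rose and 26.1% fell. Bgn, which encodes biglycan, read 27.6 and 19.5 CPM in FH and 1607 and 828 CPM in BM 3W, a rise of 5.69 ± 0.53 on the log2 scale (adjusted p = 1.48e-05), and Prelp rose by 5.26 ± 0.65 (adjusted p = 6.79e-05). In BM 1D against FH 0 of the 8 rose and 5 fell (median -2.78), against 23.6% and 20.2% of all tested genes. Prelp fell, with a log2 change of -2.70 ± 0.61, and so did Podn, at -3.58 ± 0.83, as for Lum. All 5 tested genes of the list of PDGF ligands (Pdgfa to Pdgfd and the receptor-like Pdgfrl) rose in BM 3W (median 4.11). Pdgfa rose by 2.39 ± 0.31 and had already risen in BM 1D, by 3.06 ± 0.31 on the log2 scale (adjusted p = 4.60e-05), when Pdgfra stood at 0.01 ± 0.67 and Pdgfrb at 0.14 ± 0.46. Pdgfc rose by 2.89 ± 0.71 and Pdgfd by 4.11 ± 0.63 in BM 3W.

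Lists of other cell types moved in the same libraries, where 33.0% of all tested genes rose and 26.1% fell. In BM 3W against FH 7 of 10 portal fibroblast genes rose and 0 fell (median 3.99), Gas6 by 4.28 ± 0.52 on the log2 scale. All 6 smooth muscle genes and 7 of 7 tested cholangiocyte genes rose, and 8 of 10 Kupffer cell and macrophage genes rose and 2 fell. Of 10 endothelial genes 0 rose and 6 fell, and 10 of 10 hepatocyte genes fell. Of 6 mesothelial genes 3 were tested, and these rose. Wt1 (123 and 103 counts) and Gpm6a (90 and 34) passed the low-count filter only through BM 3W, so their rise is no support. The summed level of the 13 portal fibroblast genes was 14.2 to 15.5 CPM in FH and 610.4 to 964 CPM in BM 3W, where 0 of them was at 0 counts. The 6 mesothelial genes summed to 0.633 to 0.716 CPM in FH, with Upk1b and Wt1 at 0 counts, and to 15.1 to 36.4 CPM in BM 3W. Macrophage genes summed to 83.9 to 116 CPM in FH and 982 to 1119 CPM in BM 3W. The part of these cell types in the rise of the 9 markers was not tested.

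LBDXL 3W was compared with FH and with BM 3W. Against FH 5 of 9 rose and 0 fell (11.7% and 9.60% of all tested genes), the median was 2.37 against 0.09, and 8 of 9 did not overlap, against 63.6% of all tested genes. Of those 8, Lrat, Reln and Cygb did not pass the test. Des rose by 3.93 ± 0.81 on the log2 scale (adjusted p = 0.00665), Pdgfra by 2.41 ± 0.66 (0.0249), Pdgfrb by 2.37 ± 0.45 (0.00415), Lum by 2.38 ± 0.49 (0.00678) and Dcn by 2.37 ± 0.46 (0.00507). Lrat stood at 1.40 ± 0.89 (adjusted p = 0.298), Reln at 1.02 ± 0.77 (0.385) and Cygb at 0.80 ± 0.61 (0.386). Thy1 had 4 counts in FH and 3 in LBDXL 3W, 1.88 times higher in FH relative to depth with an exact 95% interval of 0.317 to 12.8 for counting error.

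These calls were sensitive to the libraries fitted. Without the second FH library those of Pdgfrb, Dcn, Lum and Pdgfra were lost, at log2 changes of 2.07, 2.27, 2.09 and 2.85, and Des stood at 2.96. With only LBDXL 3W and FH in the edgeR fit, Des (3.92), Pdgfra (2.41), Pdgfrb (2.37) and Lum (2.37) were lost (adjusted p 0.0528 to 0.0954). That fit called 1754 of all genes, against 3008 in the fit over all groups. Pdgfra was also lost without the first FH library (0.171) or the first LBDXL 3W library (0.131), Des stood at 9.47 without the first FH library, and without the first LBDXL 3W library Pdgfrb stood at 1.64, Lum at 1.71 and Dcn at 1.78. Of the lists, 12 of 18 activated genes rose and 0 fell (median 2.91), and 3 of 17 quiescent genes rose and 0 fell (median 0.73). Of all tested genes 11.7% rose and 9.60% fell. Pdgfa rose by 1.76 ± 0.30 on the log2 scale (adjusted p = 0.0026). Macrophage genes went the other way, with 0 of 10 rising and 8 falling and a sum of 2.22 to 2.84 CPM in LBDXL 3W, Clec4f and Timd4 at 0 counts. The 10 endothelial genes summed to 6.10 CPM in 1 LBDXL 3W library and 173 CPM in the other, and their part in the differences between these libraries was not tested.

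Against BM 3W 8 of 9 fell and 0 rose in LBDXL 3W (23.7% of all tested genes fell and 21.1% rose). The median was -3.86 (-3.07 without Thy1) against -0.02, and 8 of 9 did not overlap, against 73.0% of all tested genes. The log2 change was -5.14 ± 0.63 for Des, -4.86 ± 0.51 for Lum, -4.62 ± 0.61 for Cygb and -3.86 ± 0.43 for Pdgfrb, with adjusted p between 6.80e-05 and 0.000263. Thy1 was also called (adjusted p = 0.000779), from 1255 counts to 3, a level 237 times higher in BM 3W with an exact 95% interval of 81.0 to 1152 for counting error. Thy1 passed the low-count filter only through BM 3W, so its place among the 8 that fell is no support. Reln changed by -2.28 ± 0.79 (adjusted p = 0.0359), Pdgfra by -2.01 ± 0.61 (0.0211) and Dcn by -1.73 ± 0.45 (0.0103), while Lrat differed by -0.90 ± 0.86 (adjusted p = 0.424) with overlapping libraries.

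The 3 smaller falls depended on single libraries. Without the first BM 3W library they were -1.26 for Reln (adjusted p = 0.269), -0.80 for Pdgfra (0.334) and -0.97 for Dcn (0.103), and without the second LBDXL 3W library their adjusted p was 0.157, 0.136 and 0.080. Reln was also lost without the first LBDXL 3W library (0.086), where Pdgfra stood at -2.60, Dcn at -2.32, Pdgfrb at -4.60 and Lum at -5.53. Without the second BM 3W library Des stood at -4.52, Reln at -2.87 and Pdgfra at -2.66, and without the first Lum stood at -4.15. Of 18 activated genes 18 fell (median -6.15), with Col3a1 at -8.49 ± 0.88 on the log2 scale. Of all tested genes 21.1% rose and 23.7% fell. Of 17 quiescent genes 1 rose and 5 fell (median -1.24), with Ecm1 at -0.69 ± 0.37 (adjusted p = 0.148). Macrophage genes (0 rose, 8 of 10 fell) and cholangiocyte genes (0 rose, 7 of 7 fell) moved with them and 9 of 10 hepatocyte genes rose.

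The Yap-/- groups address how the markers differ in fresh and in cultured cells labelled Yap-/-. In fresh cells 0 of 9 rose and 0 fell between FH Yap-/- and FH by edgeR's quasi-likelihood test (0.489% and 0.454% of all tested genes), 0 had an unadjusted p under 0.05, and 0 were called by DESeq2. Of the 9, 3 did not overlap, against 60.5% of all tested genes. The median was -0.14 against 0.00, and the largest difference among genes with over 3 counts in each group was that of Des, 1.47 ± 0.97 (adjusted p = 0.811). With only these groups in the fit Lrat was called, at 0.73 (adjusted p = 0.00278), as were 4251 of all genes, against 133 in the fit over all groups. Chi-square per degree of freedom between replicates was 5.51 in FH and 4.06 in FH Yap-/-, against 68.7 to 237 in the cultures. The fit over all groups takes each gene's spread from all libraries. Its 0 calls therefore do not show equal levels in the fresh groups.

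At 3 weeks 9 of 9 fell in BM 3W Yap-/- against BM 3W (16.6% of all tested genes fell and 15.0% rose). Among the 9 is Thy1, which passed the low-count filter only through BM 3W. The median was -3.38 (-3.3 without Thy1) against -0.03, and none of the 9 overlapped, as for 71.1% of all tested genes. The log2 change was -4.37 ± 0.49 for Lum, -4.31 ± 0.60 for Cygb, -3.46 ± 0.42 for Pdgfrb and -3.18 ± 0.57 for Des, with adjusted p between 0.000317 and 0.00261. Lrat changed by -3.38 ± 0.95 (adjusted p = 0.0212) and Reln by -3.23 ± 0.82 (0.0137), sizes like those of Des and Pdgfrb, and Pdgfra by -2.58 ± 0.63 (0.0111) and Dcn by -2.10 ± 0.46 (0.00648). Thy1 (adjusted p = 0.00131) went from 1255 counts to 2, a level 406 times higher in BM 3W with an exact 95% interval of 112 to 3355.

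Without the first BM 3W library adjusted p was 0.0907 for Lrat, 0.089 for Reln (log2 change -2.21), 0.132 for Pdgfra (-1.37) and 0.0506 for Dcn (-1.35), and Lum stood at -3.67. Without the second BM 3W Yap-/- library it was 0.142 for Lrat, 0.114 for Reln, 0.0982 for Pdgfra and 0.0658 for Dcn, and without the first 0.0822 for Lrat and 0.0512 for Reln. Without the second BM 3W library Des stood at -2.55, Reln at -3.82 and Pdgfra at -3.23. The calls of Lum, Cygb, Pdgfrb, Des and Thy1 held without any 1 library.

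Around them 18 of 18 activated genes fell (median -4.26), with Col3a1 at -6.92 ± 0.82 on the log2 scale. Of 17 quiescent genes 7 fell and 0 rose (median -1.84), against 16.6% and 15.0% of all tested genes. Of the 8 other proteoglycans 6 fell and 1 rose, with Bgn at -2.27 ± 0.45 and Fmod, which encodes fibromodulin, at -6.73 ± 0.63, from 77.9 and 75.5 CPM to 0.729 and 0.704 CPM. Pdgfc fell, at -4.75 ± 0.78 (-5.36 without the first BM 3W Yap-/- library), and Pdgfa stood at -0.24 ± 0.28 (adjusted p = 0.528). Of 10 portal fibroblast genes 5 fell and 1 rose, the riser being Igfbp6, an insulin-like growth factor-binding protein, by 3.19 ± 0.63 on the log2 scale (adjusted p = 0.0043), from 3.63 and 4.25 CPM to 34.8 and 37.4 CPM. Macrophage genes (1 of 10 rose, 7 fell) and hepatocyte genes (8 of 10 rose, 1 fell) moved in the same comparison, and their part in it was not tested.

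The Yap-/- cultures still departed from their own fresh cells. In BM 3W Yap-/- against FH Yap-/- 5 of 9 rose and 0 fell (19.8% and 16.5% of all tested genes), the median was 2.11 against 0.11 (2.23 without Thy1), and 7 of 9 did not overlap, against 75.4% of all tested genes. Des rose by 4.42 ± 0.68 on the log2 scale (adjusted p = 0.000716), Lum by 3.55 ± 0.52 (0.000562), Pdgfrb by 3.51 ± 0.47 (0.000374), Pdgfra by 2.34 ± 0.67 (0.0195) and Dcn by 2.11 ± 0.46 (0.00492). Pdgfra was lost without the first Yap-/- culture library (0.0847) or either fresh Yap-/- library (0.137 and 0.0635), and Dcn without the first fresh one (0.0502). Lrat stood at -1.82 ± 0.91 (adjusted p = 0.142) and Reln at 0.21 ± 0.76 (adjusted p = 0.856), so neither quiescence gene passed and Lrat had the opposite sign to the 5 that rose. With only these groups in the edgeR fit Lrat was called, at -1.84 (adjusted p = 0.00229). That fit called 6416 of all genes, against 5120 in the fit over all groups. Of 18 activated genes 17 rose and 0 fell (median 4.06), Sparc by 4.08 ± 0.58, and of 17 quiescent genes 2 rose and 2 fell (median 0.30). In the same comparison 9 of 10 endothelial genes fell (median -6.14), 4 of 7 cholangiocyte genes rose, 4 of 10 hepatocyte genes fell, and of 10 macrophage genes 4 fell and 2 rose. Their part in it was not tested.

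The interaction tests whether the change from fresh to 3-week BM culture differed between Yap-/- and control cells. It was negative, meaning a lower log2 change in Yap-/- than in control cells, for all 9 genes. Of these 4 passed (8.85% of all tested genes were called negative and 8.04% positive). The median was -3.69 (-3.39 without Thy1) against -0.03. Des differed by -4.65 ± 1.09 (log2; adjusted p = 0.0169), Cygb by -4.27 ± 0.85 (0.00905), Lum by -3.69 ± 0.71 (0.00745) and Pdgfrb by -2.72 ± 0.65 (0.0179). Lrat (-4.11 ± 1.29, adjusted p = 0.0509), Dcn (-1.98 ± 0.63, 0.053), Reln (-3.08 ± 1.10, 0.0779) and Pdgfra (-2.08 ± 0.93, 0.147) did not pass. Thy1, with 4 and 2 counts in the fresh groups, gave 0.0813. It passed the low-count filter only through BM 3W, so its sign is no support.

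Of the 4 calls Lum alone held without any 1 library (-2.98 without the first BM 3W library). Des was lost without the second BM 3W library (0.0516), either fresh Yap-/- library (0.0506 and 0.0892) or the second FH library (0.0517, log2 difference -3.75), and stood at -10.18 without the first. Pdgfrb was lost without the first BM 3W (0.0542), second BM 3W Yap-/- (0.0575), either fresh Yap-/- (0.0948 and 0.0517) or second FH library (0.072), and Cygb without the first fresh Yap-/- library (0.0514).

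**Figure D2:**
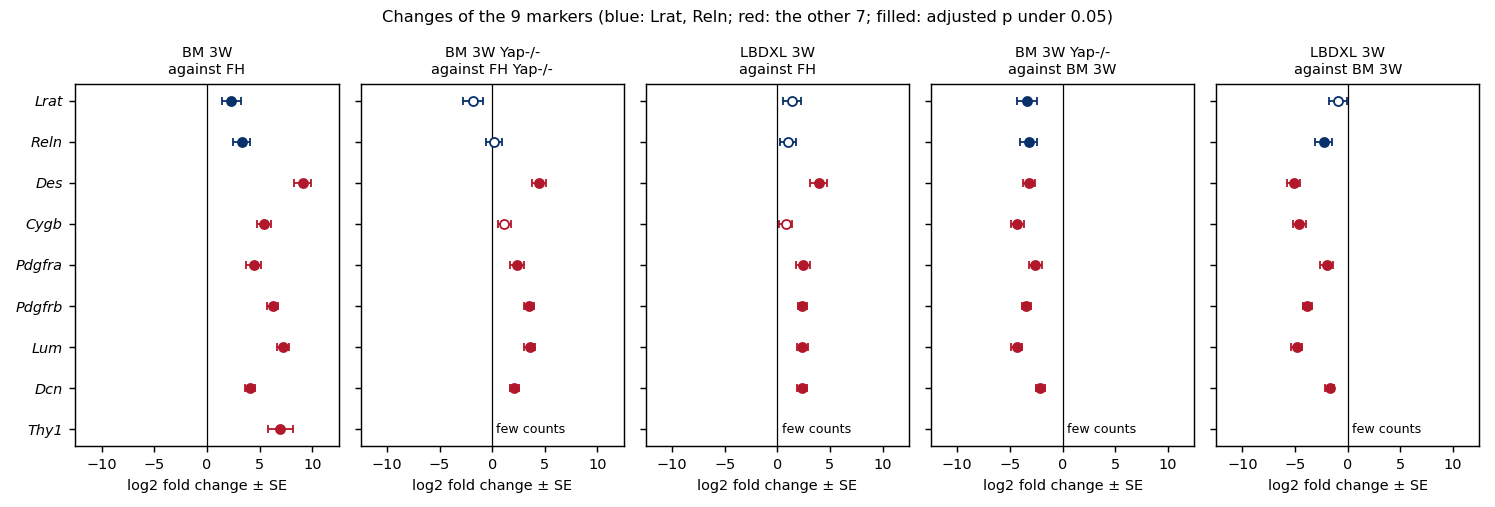
Log2 fold change ± SE (edgeR) of the 9 genes in 5 comparisons; Lrat and Reln are blue, the others red, filled points have an adjusted p under 0.05, and Thy1 is left out where a group held 3 counts or fewer. In BM 3W against FH all 9 lie to the right of 0 with Lrat and Reln nearest to it, and in BM 3W Yap-/- against BM 3W all genes drawn lie to the left.

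The balance of quiescent and other markers was described per unit length from FPKM. The 9 genes summed to 13.8 and 11.2 FPKM in FH, 12.8 and 15.4 in FH Yap-/-, 8.32 and 18.7 in BM 1D, 21.9 and 33.3 in BM 3D, 1051 and 646 in BM 3W, 112 and 67.2 in LBDXL 3W and 84.6 and 79.3 in BM 3W Yap-/-. Lrat and Reln together made up 16.1 and 16.5% of this sum in FH and 19.0 and 18.0% in FH Yap-/-. The share was 5.69 and 3.61% in BM 3W, 7.23 and 7.19% in LBDXL 3W and 4.08 and 2.60% in BM 3W Yap-/-. All 6 libraries of 3-week cultures thus lay below all 4 fresh libraries, and LBDXL 3W lay above the other 3-week groups. BM 1D (17.0 and 29.2%) and BM 3D (7.71 and 22.9%) split between libraries, the second being higher in each. Depth behind FPKM is that of the counts. FPKM carries no TMM scaling, so the sums are not levels to compare between groups. Mean Dcn was 9.06 FPKM in FH and 18.5 FPKM in BM 3D, against 46.9 and 45.7 CPM.

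Set against Pdgfrb, which quiescent and activated stellate cells both express, Lrat gave another order. Its FPKM was 3.15 and 4.10 times that of Pdgfrb in FH, 8.43 and 13.1 times in FH Yap-/-, 1.76 and 1.97 times in LBDXL 3W, 0.227 and 0.271 times in BM 3W and 0.282 and 0.213 times in BM 3W Yap-/-. BM 3W and BM 3W Yap-/- overlapped, although the levels of both genes differed between them, and LBDXL 3W lay between these cultures and the fresh cells with no overlap. Reln per Pdgfrb was 8.17 and 10.1 in FH, 1.36 and 0.87 in BM 3W, 2.79 and 5.82 in LBDXL 3W and 1.71 and 0.968 in BM 3W Yap-/-. The early cultures ran from 0.0413 to 2.86 for Lrat per Pdgfrb, the low end resting on 2 Lrat counts. Reln per Pdgfrb was 9.86 and 20.1 in FH Yap-/-, 3.99 and 18.5 in BM 1D and 0.893 and 5.03 in BM 3D. The fresh ratios rest on few Pdgfrb counts, 30 and 18 in FH and 19 and 12 in FH Yap-/-. With 2 libraries against 2 an exact permutation test cannot reach the threshold, so these ratios are given as values.

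**Figure D3:**
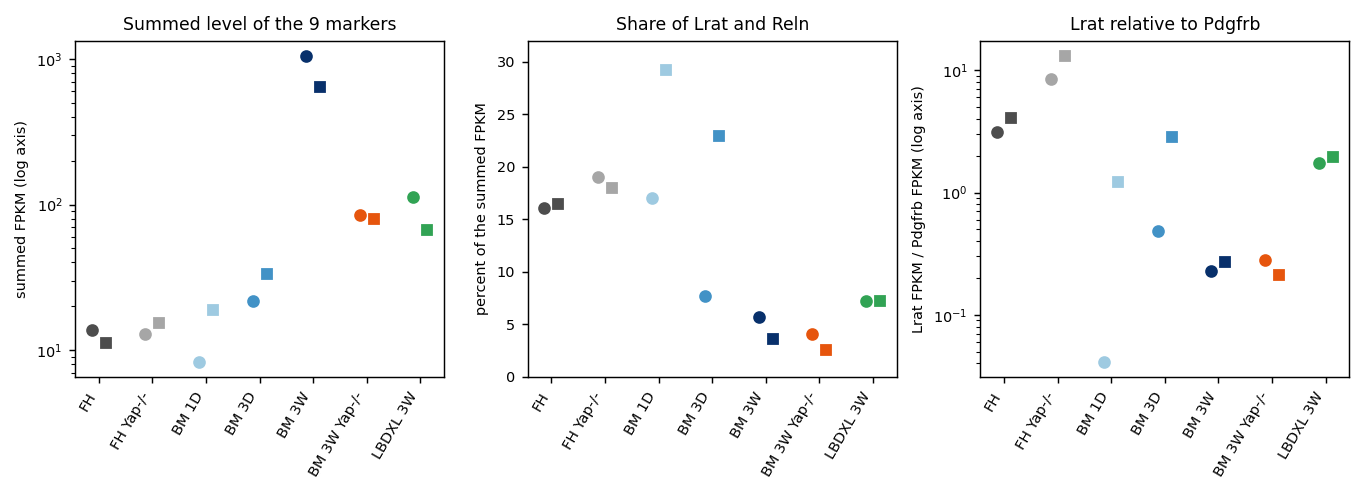
Summed FPKM of the 9 genes (left, log axis), share of Lrat and Reln in that sum in percent (middle) and Lrat FPKM divided by Pdgfrb FPKM (right, log axis) in each library; circles are library 1 and squares library 2. The sum, which carries no TMM scaling, is highest in BM 3W at 1051 and 646. The share of Lrat and Reln is 16.1% or more in the fresh libraries and 7.23% or less in the 3-week cultures.

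**Figure D4:**
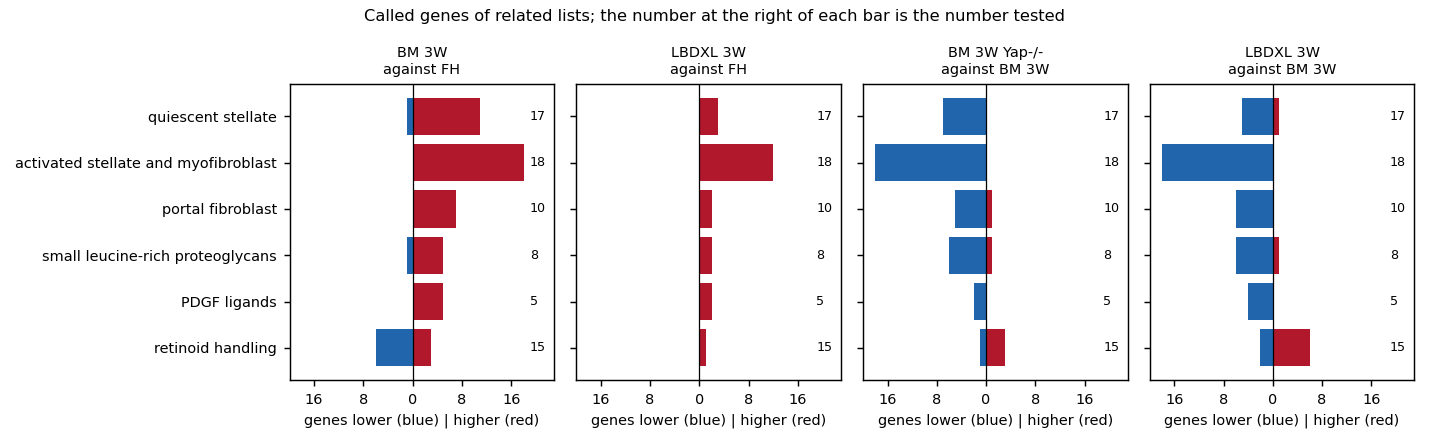
Number of tested genes of 6 related lists called lower (blue, left of 0) or higher (red, right of 0) in 4 comparisons, with the number tested at the right of each row. All 18 activated genes rise in BM 3W against FH and fall in LBDXL 3W and BM 3W Yap-/- against BM 3W. Quiescent genes are called less uniformly, 11 rising of 17 in BM 3W against FH, where 33.0% of all tested genes rise.

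Genes whose pattern over the 14 libraries was most like a member's were ranked by the root mean square difference of log2 CPM, each gene centred on its own mean, a description in which all genes share libraries and depth. Among the nearest to Lrat were Abcc9 (0.884) and Shank2 (0.906), and the nearest of the other 8 markers was Reln at 1.41, with a median of 2.02 over all tested genes. Among the nearest to Reln were Stk32b (0.535) and Hoxb4 (0.633), with Pdgfra the nearest marker at 0.868 and a median of 1.47. Pcdh7 (0.363), Clip3 (0.472) and Cacna2d1 (0.484) were nearest to Pdgfrb, and Mustn1 (0.362), Gucy1a3 (0.384) and Bmp5 (0.489) to Dcn. Pdgfra was the nearest marker to both, at 0.883 and 0.576, with medians of 2.22 and 1.82. Lrat was thus farther from its nearest fellow marker than Reln, Pdgfrb or Dcn were from theirs. Lrat lay beyond its median from Des (2.76), Lum (2.27) and Pdgfrb (2.09), and level with it from Thy1 (2.02). Reln lay beyond its median from Des (2.44), Lum (2.18), Thy1 (1.57) and Pdgfrb (1.48). The measure grows with a gene's own spread over the libraries. The root mean square of the centred values was 1.87 for Lrat, 1.29 for Reln, 2.16 for Pdgfrb and 1.69 for Dcn.

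Genes of retinoid handling, the pathway Lrat belongs to, were called in both directions, as was common among all tested genes. Of 15 tested genes of this list 3 rose and 6 fell in BM 3W against FH (median -0.04), against 33.0% and 26.1% of all tested genes. In LBDXL 3W against BM 3W 6 rose and 2 fell (median 0.18), against 21.1% and 23.7% of all tested genes. Rbp4, which hepatocytes secrete as the plasma carrier of retinol, read 3615 and 3699.8 CPM in FH, 607 and 267 CPM in BM 3W and 2359 and 5073 CPM in LBDXL 3W, a log2 change of -3.07 ± 0.55 in BM 3W against FH (-3.78 without the first BM 3W library). The retinal dehydrogenase Aldh1a1 fell, at -2.49 ± 0.49 (adjusted p = 0.0013).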

How the data were processed

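The deposited tables give raw counts per gene and FPKM of each of 14 libraries. The build GRCm38.p6 and the tools HTSeq, HISAT2, Trimmomatic, DESeq and Cufflinks come from what the submitters' processing notes name, without versions or settings. Both tables list 21878 genes (4326 with no count anywhere), of which 27 had symbols altered by a spreadsheet that were restored.

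Tests on counts used edgeR 4.0.16 (R 4.3.3) with these settings: filterByExpr on group, TMM, 1 quasi-likelihood fit over 14 libraries with a mean per group, Benjamini-Hochberg over 14100 genes, threshold 0.05. "Rose" and "fell" mean past this threshold. The SE of a log2 change is its size over the square root of its quasi-likelihood F statistic, an approximation. The other scalings and tests, each library left out in turn, DESeq2 1.42.0, and limma 3.58.1 on log2(FPKM + 1) or log2(FPKM + 0.1) for genes averaging 0.5 FPKM or more, were alternatives. FPKM served comparisons between genes, and TMM-scaled CPM levels. The code was tested on simulated counts. Figures used matplotlib 3.10.9, pandas 2.3.3 and Python 3.11.15.

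All 9 members were named, with up to 4 genes of the highest mean CPM from each list, and for Lrat, Reln, Pdgfrb and Dcn the 3 genes of most similar pattern. Some genes these rules name are not reported here. The members and lists were chosen with earlier results of these data known. Comparisons that share a control group share its libraries. The labels do not say that a number pairs libraries, so numbers were not taken to pair them. Deviations of equally numbered libraries correlated at -0.02 to 0.46 over 21 pairs of groups, with 5 over 0.1. A replicate block was fitted as an alternative. Chi-square tests found all replicate pairs to differ beyond sampling noise, the fresh pairs least. Intervals cover counting error only.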

Additional observations from a re-analysis of the deposited data

Results flagged for a closer look

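The change from fresh cells to 3 weeks of BM culture differed between Yap-/- and control cells, by a test of the difference itself (edgeR's quasi-likelihood interaction), for 4 of the 9 markers. Of all tested genes 8.85% were called negative and 8.04% positive in this interaction. The log2 difference was -4.65 for Des, -4.27 for Cygb, -3.69 for Lum and -2.72 for Pdgfrb. For each of these genes both BM 3W Yap-/- libraries lay below both BM 3W libraries. Such separation was common, as 71.1% of all tested genes did not overlap between these groups. The calls of Des, Cygb and Pdgfrb were lost when certain single libraries were left out. No single library was tested against its group.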

How the results depend on the processing

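Of 99 pairs of member and comparison 54 were called, 29 of them under all 24 alternatives, 25 were lost under at least 1, and 16 uncalled pairs were called under at least 1. The sign of 0 called values changed, while uncalled values changed sign 48 times in 18 pairs. Dcn in BM 3D against FH, uncalled at -0.04, was called at 0.95 with log2(FPKM + 1) and at 1.02 with log2(FPKM + 0.1), near the medians of all genes in these fits (0.67 and 0.92, against 0.17). Total counts alone shifted the median of all genes against FH by 0.92 in BM 1D, 1.29 in BM 3W, 0.94 in BM 3D and 0.47 in LBDXL 3W, by -0.82 and -0.64 in LBDXL 3W and BM 3W Yap-/- against BM 3W, and by -0.72 in the interaction. The cause of the other changes was not tested.

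Counts of members called were as follows where they moved by over 1.5 times. In BM 1D against FH, 2 became 1 with total counts alone, 1 with the replicate block, 0 with log2(FPKM + 1) with or without the filter and 1 with log2(FPKM + 0.1). In BM 3D against FH, 2 became 1 with only the groups compared, 4 with log2(FPKM + 0.1) and 1 with log2(FPKM + 1) unfiltered. In LBDXL 3W against FH, 5 became 1 with only the groups compared, 3 with log2(FPKM + 1) and 2 with it unfiltered. From BM 1D to BM 3D, 2 became 4 with DESeq2 or no filter, 0 with only the groups compared, 1 with either FPKM scale and 0 with log2(FPKM + 1) unfiltered. In FH Yap-/- against FH, 0 became 1 with only the groups compared. Calls over all genes moved too, from 742 to 1734 (DESeq2) and 0 (only the groups compared) between BM 1D and BM 3D, and from 133 to 4251 (only the groups compared) in FH Yap-/- against FH. The interaction's 4 became 9 with total counts alone and all FPKM fits, 8 with DESeq2, and 7 with no filter, with only the groups compared or without LBDXL 3W 1 and BM 3W 2 together.

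Leaving out 1 library gave 1 to 3 in BM 1D, 0 to 2 in BM 3D and 1 to 5 in LBDXL 3W against FH, 3 to 5 in BM 3W Yap-/- against FH Yap-/-, 0 to 2 from BM 1D to BM 3D, 5 to 8 in LBDXL 3W and 5 to 9 in BM 3W Yap-/- against BM 3W, and 1 to 6 in the interaction; a group left with 1 library was assumed to vary like the others. In BM 3W against FH the replicate block gave 8 of 9. Besides Lrat in that comparison and in BM 1D, it changed no member's call.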
